A study of Homo sapiens with 12 samples.

Results

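Translation initiation factors and the protein kinases that act on eIF2 were examined in HK-2 cultures treated with Kbr, a compound given by that name alone in the labels. HK-2 is an immortalised epithelial line from the human renal proximal tubule. The members are 44 genes taken by symbol. For each gene the brightest probe set on average was used, among those that the array's annotation assigns to that gene alone. Such a probe set was found for 42 members, of 19775 genes that have one on the array. EIF4A1 was listed only on probe sets that carry several symbols and EIF4G3 on none, so neither was analysed here. EIF4A2 had 1 probe set of its own (1556350_a_at), which read between 2.76 and 2.95 in the 12 arrays and did not pass the filter, a log2 value over 4 in at least 3 arrays. The other 41 members passed it and exceeded that level in all 12 arrays, so none of them passed through 1 group alone. They were tested among 10574 genes.

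The groups were Kbr at 24 h, control at 24 h, Kbr at 48 h and control at 48 h, each with 3 cultures that the labels call biological replicates. Kbr was given at a dose described only as high, and controls received the vehicle, which is not named. All cultures grew in the same serum-free medium with EGF, hydrocortisone, insulin, transferrin and selenite, and were treated near confluence. Values are log2 GCRMA summaries, the authors' background-corrected and normalised probe set levels, and a difference of 1 on this scale is a doubling. A log2 level of one gene is not set against that of another, since probe sets differ in brightness. RNA came from whole cultures, so fewer cells of a kind and less RNA per cell cannot be told apart.

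Initiation begins when eIF2, bound to GTP, carries the initiator tRNA to the small ribosomal subunit together with eIF1, eIF1A, eIF5 and the large scaffold eIF3. The eIF4 factors bind the mRNA cap and unwind the leader, the complex scans to a start codon, eIF5 triggers GTP hydrolysis on eIF2, and eIF5B joins the large subunit. eIF2B then reloads eIF2 with GTP. Stress-activated kinases phosphorylate the alpha subunit of eIF2, which blocks eIF2B and lowers initiation on most mRNAs, while eIF4E-binding proteins lower cap-dependent initiation by holding eIF4E. These arrays measured mRNA of the factors, not phosphorylation or translation.

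More of the members were higher than lower in Kbr cultures. At 24 h 13 of the 41 tested members were called (31.7%, against 32.4% of all tested genes), and at 48 h 25 were (61%, against 59.6%), so that the shares called were near those of all genes. By direction, at 24 h, 12 of the 41 tested members rose and 1 fell, against 12.4% and 20.0% of all tested genes, and at 48 h, 19 rose and 6 fell, against 26.9% and 32.8% of all tested genes. As shares of the members these are 29.3% and 2.44% at 24 h, and 46.3% and 14.6% at 48 h. Calls are at an adjusted p under 0.05 from limma with Benjamini-Hochberg adjustment over all tested genes. The median log2 difference, Kbr minus control, was 0.20 over the members and -0.06 over all tested genes at 24 h, and 0.32 and -0.06 at 48 h. Arrays with the same replicate number deviated together, and with that number as a block 17 members rose and 2 fell at 24 h (18.6% and 29.4% of all tested genes, 48.0% in all), and 23 rose and 9 fell at 48 h (31.3% and 38.1%, 69.4% in all). The 2 times use separate control cultures. Called rises at both times were found for 11 members (11.7% of all tested genes), called falls at both times for 0 (18.5% of all tested genes), and 14 members were called at neither time (34.1%, against 38.1% of all tested genes). With the block, EIF3K was called lower at both times. Kbr arrays were clear of control arrays for 26 members at 24 h, 20 of them higher and 6 lower (22.4% and 29.2% of all tested genes). At 48 h they were so for 28 members, 19 higher and 9 lower (28.6% and 34.2%). Of the called members, 5 kept the call under all alternatives tried at 24 h (EIF1AX, EIF1AD, EIF2S1, EIF3J and EIF4A3) and 16 did so at 48 h.

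**Figure D1:**
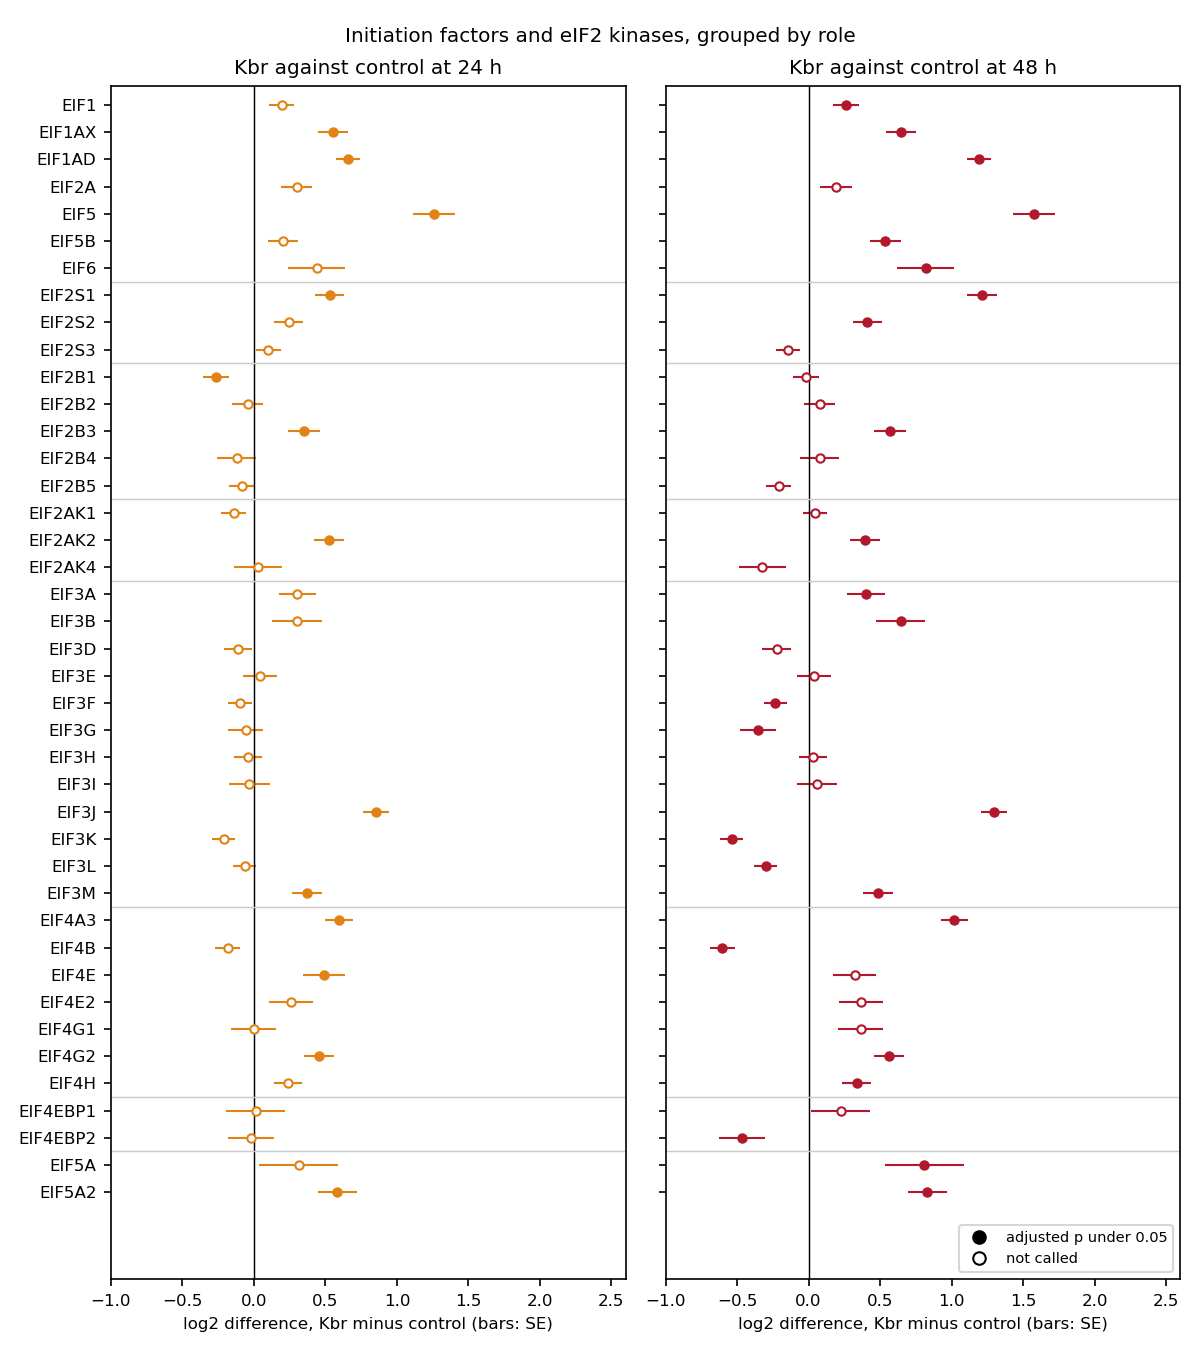
Log2 difference, Kbr minus control, at 24 h (left) and 48 h (right) for the 41 tested members in the order of their roles, with the moderated standard error as a bar; filled points passed an adjusted p of 0.05. Among filled points, 12 lie right and 1 left of 0 at 24 h, against 19 right and 6 left at 48 h.

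Some features of the whole set of arrays moved with the treatment. All 6 general epithelial markers exceeded the filter, and so did 4 of 13 measured proximal tubule markers (SLC3A1, GATM, CDH6 and PAX8). Below it were the transporters SLC22A6, SLC22A8, SLC34A1 and SLC5A2, the endocytic receptors LRP2 and CUBN, and ANPEP, GGT1 and AQP1, markers that define the mature proximal tubule. The log2 of the summed proximal tubule markers ranged at 24 h from 12.41 to 12.73 in Kbr and from 13.01 to 13.36 in control arrays. At 48 h its range was 11.893 to 12.004 in Kbr and 13.005 to 13.383 in control arrays. The sum of 7 fibroblast and mesenchyme markers, of which 3 exceeded the filter, ranged at 24 h from 11.42 to 11.84 in Kbr and from 12.37 to 12.88 in control arrays. At 48 h its range was 10.19 to 10.61 in Kbr and 12.28 to 12.34 in control arrays. The sum of the general epithelial markers at 48 h ranged from 14.13 to 14.30 in Kbr and 14.48 to 14.79 in control arrays. The sums add linear values, and in control arrays the tubule sum rests most on CDH6, which at 48 h averaged 10.01 in Kbr arrays, against 12.57 in control arrays. Markers did not all move alike: PAX8 was called higher at both times (0.55 and 0.56) and KRT18 higher at 48 h (0.43), while 3 of 4 tested tubule markers fell at both times and 5 of 6 general epithelial markers fell at 48 h. Leukocyte markers were below the filter in 4 of 4 measured, and 1 of 5 endothelial markers exceeded it. The array's 18S and 28S ribosomal RNA sets lay higher in all Kbr than in all control arrays at each time, by log2 differences of 0.38 to 0.51. Kbr 48 h replicate 3 deviated most from its group mean, with a root mean square of 0.290, against 0.164 to 0.228 in the other arrays. Without it 18 members rose and 7 fell at 48 h. The part of these features in the results on the initiation factors was not tested.

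Promoter windows are printed for the 3 called members with the largest rise and the 2 with the largest fall at 48 h that have one. They show the sequence just before the start of the genes that moved most. Each is the 250 bases upstream of the annotated start, 5′ to 3′, from RefSeq on build GRCh38.p14, which lists a window for 36 of the 44 members. Where a gene had several starts, the most upstream was taken.
EIF5, chr14:103333987-103334236, plus strand: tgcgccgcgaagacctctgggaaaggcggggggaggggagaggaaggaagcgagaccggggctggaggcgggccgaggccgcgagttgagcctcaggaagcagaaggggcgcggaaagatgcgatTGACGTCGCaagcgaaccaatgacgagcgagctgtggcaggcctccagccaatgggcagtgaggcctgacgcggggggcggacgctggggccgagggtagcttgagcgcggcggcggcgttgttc
EIF3J, chr15:44536897-44537146, plus strand: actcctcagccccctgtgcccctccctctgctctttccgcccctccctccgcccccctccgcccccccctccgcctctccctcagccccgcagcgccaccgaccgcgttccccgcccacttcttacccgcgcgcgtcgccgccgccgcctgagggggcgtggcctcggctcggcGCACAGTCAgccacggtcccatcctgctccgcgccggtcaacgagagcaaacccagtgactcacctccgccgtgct
EIF2S1, chr14:67360078-67360327, plus strand: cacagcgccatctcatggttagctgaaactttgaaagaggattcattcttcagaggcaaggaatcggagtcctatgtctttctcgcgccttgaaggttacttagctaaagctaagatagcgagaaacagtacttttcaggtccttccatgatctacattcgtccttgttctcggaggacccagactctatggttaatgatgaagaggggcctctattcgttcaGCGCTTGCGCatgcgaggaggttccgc
EIF4B, chr12:53006206-53006455, plus strand: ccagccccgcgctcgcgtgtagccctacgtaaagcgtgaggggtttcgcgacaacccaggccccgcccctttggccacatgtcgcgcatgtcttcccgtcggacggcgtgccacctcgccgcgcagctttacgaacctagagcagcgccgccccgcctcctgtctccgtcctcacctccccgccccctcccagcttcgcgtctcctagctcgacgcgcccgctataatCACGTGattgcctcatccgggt
EIF3K, chr19:38618938-38619187, plus strand: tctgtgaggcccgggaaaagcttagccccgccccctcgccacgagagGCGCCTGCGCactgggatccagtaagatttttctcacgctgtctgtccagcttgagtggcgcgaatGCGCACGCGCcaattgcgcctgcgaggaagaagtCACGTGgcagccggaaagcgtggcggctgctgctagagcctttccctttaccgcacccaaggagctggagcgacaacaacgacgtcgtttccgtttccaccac
Capitals mark matches, on either strand, to any of 8 motifs, which were chosen after values were seen and have no test here. They are the E-box CACGTG, the antioxidant response element core TGACNNNGC, the ATF4 composite element core TGATGNAA, an ETS site CCGGAAGT, the cyclic AMP response element TGACGTCA and, by name alone, the NRF1 site, a heat shock element and a YY1 site. In these 5 windows no match overlapped a match of another motif. EIF5 held TGACNNNGC at 125 bases before its start and EIF3J held it on the other strand at 76 bases. EIF2S1 held the NRF1 site at 27 bases and EIF4B the E-box at 22 bases. EIF3K held the E-box at 103 bases and the NRF1 site at 203 and 137 bases. Over full windows of 300 bases, which reach 50 bases past the start, the E-box occurred in 10 of 36 members (27.8%) and 7.41% of 27305 genes, and TGACNNNGC in 9 members (25%) and 13.6% of genes. The NRF1 site occurred in 7 members (19.4%) and 6.29% of genes, CCGGAAGT in 8 (22.2%) and 4.42%, and the YY1 site in 1 (2.78%) and 0.894%. TGATGNAA, the heat shock element and TGACGTCA occurred in 0 of the 36 members, and in 3.67%, 0.494% and 1.97% of genes. A match says only that these letters are in the window.

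Among the 7 factors of start codon selection, subunit joining and related steps, 3 rose at 24 h and 6 at 48 h, and none was called lower. Of all tested genes 12.4% rose and 20.0% fell at 24 h, and 26.9% rose and 32.8% fell at 48 h. EIF5, which makes eIF2 hydrolyse its GTP at the start codon, had the largest difference of all members at both times. Its values were 13.44, 13.58 and 13.56 in Kbr arrays, against 12.13, 12.27 and 12.39 in control arrays at 24 h. They were 13.95, 14.10 and 13.53 in Kbr arrays, against 12.44, 12.29 and 12.14 in control arrays at 48 h. All Kbr arrays lay above all control arrays at both times, and at 48 h replicate 3 was the lowest Kbr array. The difference was 1.26 (SE 0.15, 2.39-fold, adjusted p = 0.000256) at 24 h and 1.57 (SE 0.15, 2.98-fold, adjusted p = 8.09e-06) at 48 h. Of 5 EIF5 probe sets over the filter, 4 were called higher at each time, by 1.26 to 1.69 at 24 h. The fifth, 208707_at, near the filter with levels between 4.87 and 5.98, differed by 0.13 and 0.39 (adjusted p = 0.713 and 0.19 where unsuffixed probe sets are preferred).

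EIF1AD, a protein related to the scanning factor eIF1A, read 8.80, 8.86 and 8.73 in Kbr arrays, against 8.14, 8.08 and 8.19 in control arrays at 24 h. At 48 h it read 9.01, 8.94 and 8.99 in Kbr arrays, against 7.88, 7.71 and 7.77 in control arrays. The groups did not overlap, and the rise was 0.65 (SE 0.08, adjusted p = 0.000381) at 24 h and 1.19 (SE 0.08, adjusted p = 1.65e-06) at 48 h. EIF1AX, the X-linked gene of eIF1A, rose by 0.55 at 24 h (SE 0.10, adjusted p = 0.00289) and 0.65 at 48 h (adjusted p = 0.00032), and its 4 probe sets over the filter were all called higher at 48 h. EIF5B, the GTPase of subunit joining, rose by 0.54 at 48 h (SE 0.11, adjusted p = 0.00125) and differed by 0.20 at 24 h without a call.

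EIF6 binds the large subunit and keeps it from joining too early. It rose by 0.82 at 48 h (SE 0.20, adjusted p = 0.00448); at 24 h its difference of 0.44 was called only with the replicate block (adjusted p = 0.116, and 0.00431 with the block). EIF1, which guards the accuracy of start codon choice, rose by 0.26 at 48 h (SE 0.09, adjusted p = 0.0245). That call was lost when 1 of 4 arrays of 48 h was left out, namely Kbr replicate 1 (adjusted p = 0.0798) or 2 (0.0697) or control replicate 2 (0.0887) or 3 (0.056). It also ended with only the groups compared (0.0917) and with unsuffixed probe sets preferred (0.0864). At 24 h the EIF1 set used, 211956_s_at, differed by 0.19 without a call (adjusted p = 0.116). Of the 7 EIF1 probe sets over the filter, 6 were called higher at each time. Those called at 24 h, which leave out the set used, rose by 0.45 to 1.07. EIF2A, a factor separate from eIF2 that can deliver initiator tRNA, differed by 0.30 at 24 h and 0.19 at 48 h, called only with the block (adjusted p = 0.00988 and 0.0428).

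**Figure D2:**
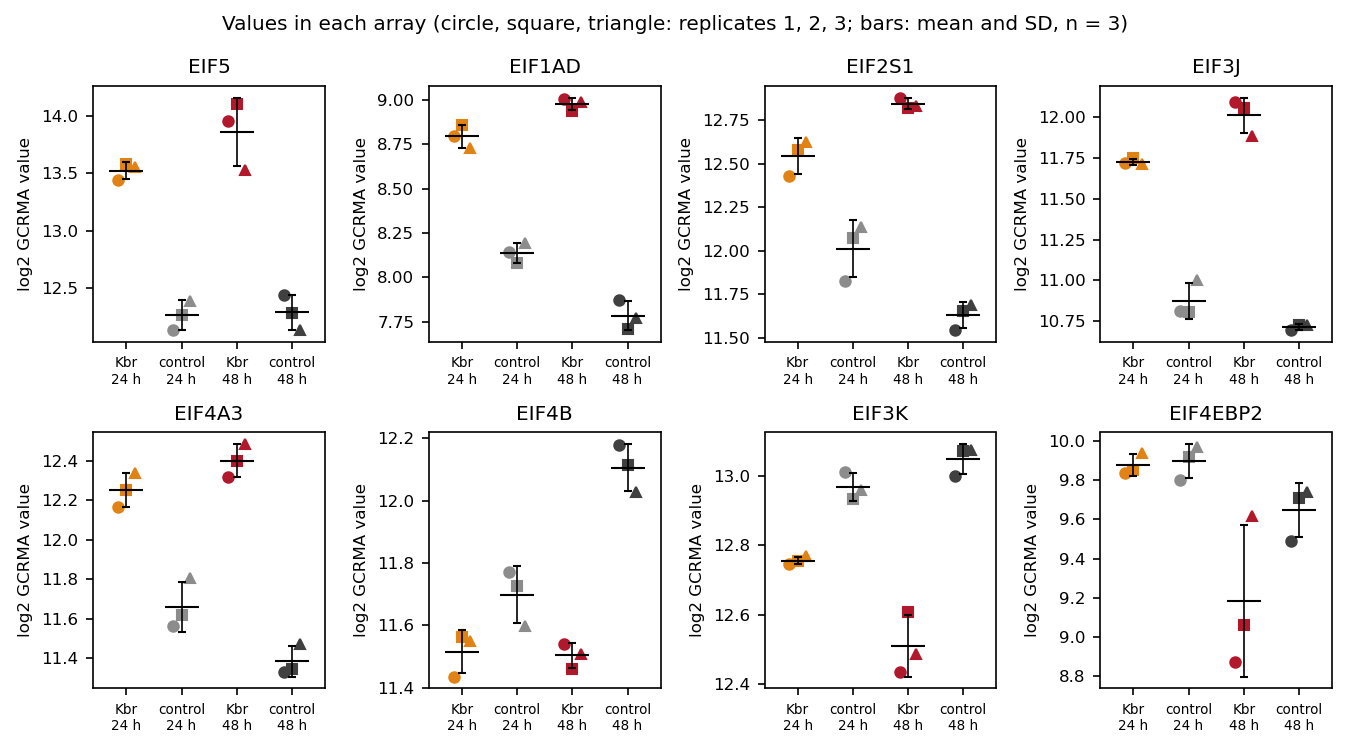
Log2 GCRMA value in each of the 12 arrays for 8 members picked after their values were seen, with the mean and SD of 3 arrays; symbols give the replicate number. EIF5, EIF1AD, EIF2S1, EIF3J and EIF4A3 are higher in Kbr than in control arrays without overlap at both times, while EIF3K is lower in Kbr arrays without overlap at both times and EIF4B likewise.

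Of the 3 subunits of eIF2, 1 rose at 24 h and 2 rose at 48 h (12.4% and 26.9% of all tested genes). EIF2S1 encodes the alpha subunit, the one the kinases phosphorylate. It read 12.43, 12.58 and 12.63 in Kbr arrays, against 11.83, 12.08 and 12.14 in control arrays at 24 h. At 48 h it read 12.88, 12.82 and 12.83 in Kbr arrays, against 11.55, 11.66 and 11.69 in control arrays. The groups did not overlap at either time, and the rise was 0.53 (SE 0.10, adjusted p = 0.00316) at 24 h and 1.21 (SE 0.10, adjusted p = 4.5e-06) at 48 h. All 3 EIF2S1 probe sets were called higher at both times, but 201143_s_at rose by 0.47 and 201142_at by 0.42 at 48 h, against 1.21 for the set used.

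EIF2S2, the beta subunit, read 13.84, 13.91 and 13.64 in Kbr arrays, against 13.41, 13.40 and 13.34 in control arrays at 48 h on the probe set used (208726_s_at), a rise of 0.41 (SE 0.10, adjusted p = 0.00497). At 24 h the same probe set read 13.54, 13.68 and 13.67 in Kbr arrays, against 13.24, 13.45 and 13.47 in control arrays, without a call (0.24, adjusted p = 0.0898). Neither time showed any overlap of the groups. A dimmer EIF2S2 probe set, 208725_at, was called the other way at 48 h, at 6.99, 6.57 and 6.56 in Kbr arrays, against 7.26, 7.11 and 7.11 in control arrays, a fall of 0.45 on the log2 scale. EIF2S3, the gamma subunit that binds GTP and tRNA, differed by 0.10 at 24 h and -0.15 at 48 h and was not called.

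eIF2B, the exchange factor that recharges eIF2, had 1 of its 5 subunits higher and 1 lower at 24 h, and 1 higher at 48 h. The shares of all tested genes were 12.4% and 20.0% at 24 h, and 26.9% higher at 48 h. EIF2B3, the gamma subunit, read 8.77, 8.94 and 8.84 in Kbr arrays, against 8.34, 8.60 and 8.55 in control arrays at 24 h. It read 8.86, 8.93 and 8.59 in Kbr arrays, against 8.16, 8.22 and 8.30 in control arrays at 48 h. The rise was 0.35 at 24 h (SE 0.11, adjusted p = 0.036) and 0.57 at 48 h (SE 0.11, adjusted p = 0.00127), without overlap. The call at 24 h was lost when Kbr replicate 1 (adjusted p = 0.0551), 2 (0.116) or 3 (0.0803) or control replicate 1 (0.139) or 3 (0.0541) of that time was left out, and with arrays centred on their median (0.0506).

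EIF2B1, an alpha subunit by which eIF2B senses phosphorylated eIF2, read 9.95, 10.01 and 10.10 in Kbr arrays, against 10.23, 10.22 and 10.41 in control arrays at 24 h. All Kbr arrays lay below all control arrays, and the fall was 0.26 on the log2 scale (SE 0.09, adjusted p = 0.0483). This call sat at the threshold. It ended without any 1 of 10 arrays, namely the Kbr arrays of 24 h, replicate 1 (adjusted p = 0.144), 2 (0.114) or 3 (0.0611), the control arrays of 24 h, replicate 1 (0.0773), 2 (0.064) or 3 (0.15), Kbr 48 h replicate 2 (0.0606), or the control arrays of 48 h, replicate 1 (0.0551), 2 (0.0613) or 3 (0.0617). It also ended with only the groups compared (0.0725) and with unsuffixed probe sets preferred (0.053). The only EIF2B1 set, 201632_at, is itself unsuffixed, so in the latter setting its values were the same and only those of other genes differed. At 48 h EIF2B1 read 10.29, 10.11 and 10.13 in Kbr arrays, against 10.16, 10.23 and 10.20 in control arrays, a difference of -0.02. EIF2B5, the catalytic epsilon subunit, was at -0.21 at 48 h, called lower only with the block (adjusted p = 0.0606, and 0.0303 with the block). EIF2B2 and EIF2B4 differed by -0.12 to 0.08 and were not called.

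Of the 3 eIF2 kinases among the members, 1 rose at each time and none was called lower. Of all tested genes 12.4% rose at 24 h and 26.9% at 48 h. EIF2AK2 encodes PKR, the kinase activated by double-stranded RNA. It read 10.02, 10.33 and 10.05 in Kbr arrays, against 9.61, 9.69 and 9.53 in control arrays at 24 h. At 48 h the kinase read 9.98, 10.16 and 10.20 in Kbr arrays, against 9.68, 9.76 and 9.72 in control arrays. The groups did not overlap, and it rose by 0.52 at 24 h (SE 0.11, adjusted p = 0.00422) and 0.39 at 48 h (SE 0.11, adjusted p = 0.00808). With unsuffixed probe sets preferred, which takes the set 213294_at, neither call held (adjusted p = 0.0581 and 0.191). EIF2AK1, the haem-regulated kinase HRI, was at -0.14 at 24 h and 0.04 at 48 h. EIF2AK4, the amino acid sensor GCN2, was at 0.03 at 24 h and -0.32 at 48 h, called lower at 48 h only with the block (adjusted p = 0.117, and 0.0346 with the block). Its dimmer probe set 237145_at, at 4.70, 5.09 and 4.88 in Kbr arrays and 3.12, 3.57 and 3.49 in control arrays at 48 h, was called higher. It exceeded the filter's level of 4 in Kbr arrays alone, so it was tested only through the treatment where it is high. That call is not read as a result.

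Of the 12 eIF3 subunits, 4 rose at 48 h (EIF3J, EIF3B, EIF3M and EIF3A), 4 fell (EIF3K, EIF3G, EIF3L and EIF3F) and 4 were not called. Among all tested genes 26.9% rose and 32.8% fell at 48 h. At 24 h 2 rose and none was called lower (12.4% and 20.0% of all tested genes). eIF3 holds the initiation complex together on the small subunit; its J subunit is loosely bound. EIF3J read 11.72, 11.75 and 11.71 in Kbr arrays, against 10.81, 10.81 and 11.00 in control arrays at 24 h. At 48 h it read 12.09, 12.06 and 11.89 in Kbr arrays, against 10.70, 10.73 and 10.72 in control arrays. The gap between the groups exceeded the spread within each, and the rise was 0.85 (SE 0.09, adjusted p = 0.000158) at 24 h and 1.30 (SE 0.09, adjusted p = 1.64e-06) at 48 h. Its other probe set rose by 0.84 and 1.27.

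EIF3B, a core scaffold subunit, read 11.37, 11.28 and 11.64 in Kbr arrays, against 10.82, 10.56 and 10.97 in control arrays at 48 h, a rise of 0.64 (SE 0.17, adjusted p = 0.00818) without overlap. Values of 24 h were 11.56, 11.29 and 11.64 in Kbr arrays, against 11.11, 10.95 and 11.54 in control arrays. These overlap, and the difference of 0.30 was called only with the block (adjusted p = 0.211, and 0.0144 with the block). All 5 EIF3B probe sets over the filter were called higher at 48 h.

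EIF3M, a subunit of the PCI/MPN core of the complex, read 12.88, 12.94 and 12.81 in Kbr arrays, against 12.44, 12.54 and 12.56 in control arrays at 24 h. It read 13.24, 13.21 and 12.95 in Kbr arrays, against 12.55, 12.79 and 12.60 in control arrays at 48 h. It rose by 0.37 (SE 0.10, adjusted p = 0.0213) at 24 h and by 0.49 (SE 0.10, adjusted p = 0.00215) at 48 h, without overlap. The call at 24 h was lost when Kbr replicate 1 (adjusted p = 0.0575) or 2 (0.0726) or control replicate 1 (0.0791) of that time was left out, and after quantile normalization (0.0531).

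EIF3A and EIF3F each had probe sets called in opposite directions at 48 h. The EIF3A set used, 200595_s_at, read 13.37, 13.15 and 12.93 in Kbr arrays, against 12.71, 12.83 and 12.71 in control arrays at 48 h, and was higher by 0.40 (SE 0.13, adjusted p = 0.0222). At 24 h it read 13.10, 12.87 and 12.78 in Kbr arrays, against 12.66, 12.45 and 12.73 in control arrays, a difference of 0.30 without a call. The EIF3A set 200597_at was called lower at 48 h, at 8.39, 8.25 and 7.85 in Kbr arrays, against 8.90, 9.10 and 8.96 in control arrays. Which of them follows the EIF3A mRNA cannot be told apart here. The call at 48 h of the set used was lost when Kbr replicate 1 (adjusted p = 0.0893) or 2 (0.0533) or control replicate 1 (0.0605) or 3 (0.0591) of that time was left out, and after quantile normalization (0.0541).

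EIF3F, another subunit of that core, read 13.19, 13.17 and 13.32 in Kbr arrays, against 13.52, 13.45 and 13.41 in control arrays at 48 h on the set used, 200023_s_at. At 24 h it read 13.15, 13.13 and 13.15 in Kbr arrays, against 13.30, 13.25 and 13.18 in control arrays. The Kbr arrays lay below the control arrays at both times, and the fall at 48 h was 0.23 (SE 0.08, adjusted p = 0.0279). The set 230479_at was called higher at both times, and at 48 h read 7.21, 7.25 and 6.55 in Kbr arrays, against 6.09, 6.27 and 5.68 in control arrays. The call of 200023_s_at at 48 h was lost when Kbr replicate 1 (adjusted p = 0.0724) or 2 (0.0927) or control replicate 1 (0.0785) or 2 (0.0568) of that time was left out, and with only the groups compared (0.0991).

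EIF3K, with EIF3L a subunit at the edge of the complex, was named along with EIF3G and EIF3L after its values were seen. It read 12.44, 12.61 and 12.49 in Kbr arrays, against 13.00, 13.07 and 13.08 in control arrays at 48 h, and fell by 0.54 on the log2 scale (SE 0.08, adjusted p = 0.00018). The 24 h values were 12.75, 12.75 and 12.77 in Kbr arrays, against 13.01, 12.93 and 12.96 in control arrays, a difference of -0.21 called only with the block (adjusted p = 0.0644, and 0.0316 with the block). No array overlapped at either time, and all 3 EIF3K probe sets over the filter were called lower at 48 h.

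EIF3L fell by 0.30 at 48 h (SE 0.08, adjusted p = 0.00688), with no overlap. EIF3G, an RNA-binding subunit, fell by 0.36 at 48 h (SE 0.12, adjusted p = 0.029), and this call was lost when Kbr replicate 2 (adjusted p = 0.123) or control replicate 1 (0.107) or 3 (0.0634) of that time was left out, and with only the groups compared (0.0876). EIF3D, which can itself bind the cap, was at -0.22 at 48 h, called lower only with the block (adjusted p = 0.0762, and 0.0315 with the block). EIF3E, EIF3H and EIF3I differed by -0.04 to 0.06 and were not called, although a dimmer EIF3H set, 230570_at, was called lower at 48 h by a difference of -1.17.

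**Figure D3:**
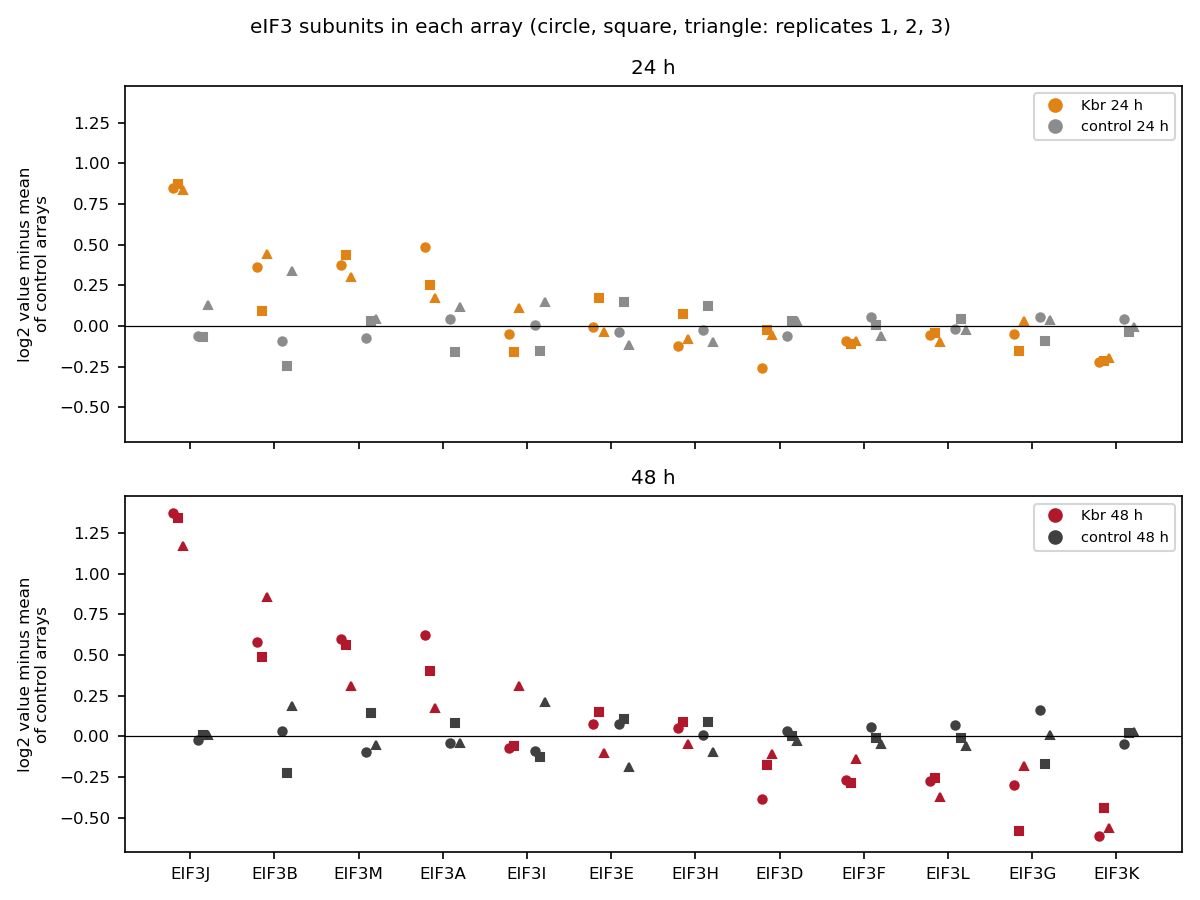
Log2 value minus the mean of the control arrays of the same time for the 12 eIF3 subunits at 24 h (top) and 48 h (bottom), with Kbr arrays left of control arrays, each point 1 array, in the order of the difference at 48 h. At 48 h the subunits spread from EIF3J, higher by 1.30, to EIF3K, at -0.54.

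Of the 7 tested eIF4 factors, 3 rose at 24 h, and at 48 h 3 rose and 1 fell. Of all tested genes 12.4% rose at 24 h, and at 48 h 26.9% rose and 32.8% fell. EIF4A3, a helicase of the eIF4A family that sits in the exon junction complex, read 12.17, 12.25 and 12.34 in Kbr arrays, against 11.56, 11.62 and 11.80 in control arrays at 24 h. At 48 h it read 12.32, 12.40 and 12.49 in Kbr arrays, against 11.33, 11.35 and 11.47 in control arrays. It rose by 0.59 (SE 0.10, adjusted p = 0.00139) at 24 h and by 1.02 (SE 0.10, adjusted p = 9.49e-06) at 48 h, without overlap.

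EIF4B, which stimulates the eIF4A helicase, read 11.54, 11.46 and 11.51 in Kbr arrays, against 12.18, 12.11 and 12.03 in control arrays at 48 h. At 24 h it read 11.44, 11.56 and 11.55 in Kbr arrays, against 11.77, 11.73 and 11.60 in control arrays. The groups did not overlap at either time. The fall was called at 48 h, by 0.60 on the log2 scale (SE 0.09, adjusted p = 0.000143), and the difference at 24 h was -0.18 without a call. This was the largest fall of a member on the probe sets used, while some sets not used, such as those of EIF4EBP2 given below, fell further. In control cultures EIF4B was itself higher at 48 h than at 24 h, by 0.41, as described further on.

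EIF4E, the cap-binding protein, read 11.59, 11.70 and 11.52 in Kbr arrays, against 11.05, 10.95 and 11.33 in control arrays at 24 h, a rise of 0.49 (SE 0.15, adjusted p = 0.0273) without overlap. This call was lost when Kbr replicate 1 (adjusted p = 0.0639) or 2 (0.0889) or control replicate 1 (0.0873) or 2 (0.0934) of that time was left out, and without the filter (0.0562). At 48 h it read 11.32, 11.14 and 11.63 in Kbr arrays, against 10.84, 11.12 and 11.17 in control arrays; these overlap, and the difference of 0.32 was called only with the block (adjusted p = 0.0827, and 0.0475 with the block). EIF4G2, a relative of the eIF4G scaffold that lacks the eIF4E-binding site, rose by 0.46 at 24 h (SE 0.11, adjusted p = 0.00834) and by 0.56 at 48 h (adjusted p = 0.000924). The call at 24 h ended on the mean of all its probe sets (adjusted p = 0.0564). That mean takes in 217607_x_at and 1557964_at, which averaged 2.91 and 1.82 and lie under the filter.

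EIF4H, another helicase cofactor, rose by 0.34 at 48 h (SE 0.10, adjusted p = 0.0139) and was called at 24 h only with the block (0.24, adjusted p = 0.0931, and 0.0222 with the block). EIF4G1, the main scaffold that joins eIF4E, eIF4A and eIF3, was at -0.003 at 24 h and 0.36 at 48 h. EIF4E2, a cap-binding relative of eIF4E, was at 0.26 at 24 h and 0.37 at 48 h. At 48 h both were called higher only with the block (adjusted p = 0.00982 for EIF4G1 and 0.0151 for EIF4E2, against 0.0635 and 0.063 without it).

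Of the eIF4E-binding proteins, EIF4EBP1 differed by 0.01 at 24 h and 0.22 at 48 h and was not called. EIF4EBP2 read 8.87, 9.06 and 9.62 in Kbr arrays, against 9.49, 9.71 and 9.74 in control arrays at 48 h, and fell by 0.47 on the log2 scale (SE 0.16, adjusted p = 0.0299). Kbr replicate 3 overlapped with the control arrays. Values of 24 h were 9.84, 9.85 and 9.94 in Kbr arrays, against 9.80, 9.92 and 9.97 in control arrays, a difference of -0.02. The call at 48 h was lost when Kbr replicate 1 (adjusted p = 0.12) or 2 (0.0961) or control replicate 2 (0.0784) or 3 (0.0859) of that time was left out, with only the groups compared (0.0971) and without the filter (0.0651). The EIF4EBP2 set 224653_at differed by -1.60 and 224645_at by -1.72 at 48 h, and 3 of 4 sets over the filter were called lower.

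Both genes of eIF5A, the hypusine-bearing factor that helps ribosomes past stalling sequences, rose at 48 h (26.9% of all tested genes). EIF5A2 read 8.25, 8.22 and 8.33 in Kbr arrays, against 7.48, 7.73 and 7.84 in control arrays at 24 h. At 48 h its values were 8.28, 8.30 and 8.56 in Kbr arrays, against 7.45, 7.81 and 7.39 in control arrays. It rose by 0.58 (SE 0.14, adjusted p = 0.0086) at 24 h and 0.83 (SE 0.14, adjusted p = 0.000374) at 48 h, without overlap, and the call at 24 h ended on the mean of its probe sets (adjusted p = 0.0689).

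EIF5A read 12.87, 12.64 and 13.45 in Kbr arrays, against 11.94, 11.88 and 12.72 in control arrays at 48 h, a rise of 0.81 (SE 0.28, adjusted p = 0.0267). The 24 h values were 13.06, 12.91 and 13.48 in Kbr arrays, against 12.83, 12.51 and 13.17 in control arrays, and the difference of 0.31 was called only with the block (adjusted p = 0.416, and 0.0209 with the block). The groups overlap at both times, since replicate 3 is the highest in every group. The call at 48 h was lost when Kbr replicate 3 (adjusted p = 0.103) or control replicate 1 (0.0919) or 2 (0.0945) of that time was left out, with only the groups compared (0.0555) and without the filter (0.0759), and was kept with the block (5.36e-05).

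**Figure D4:**
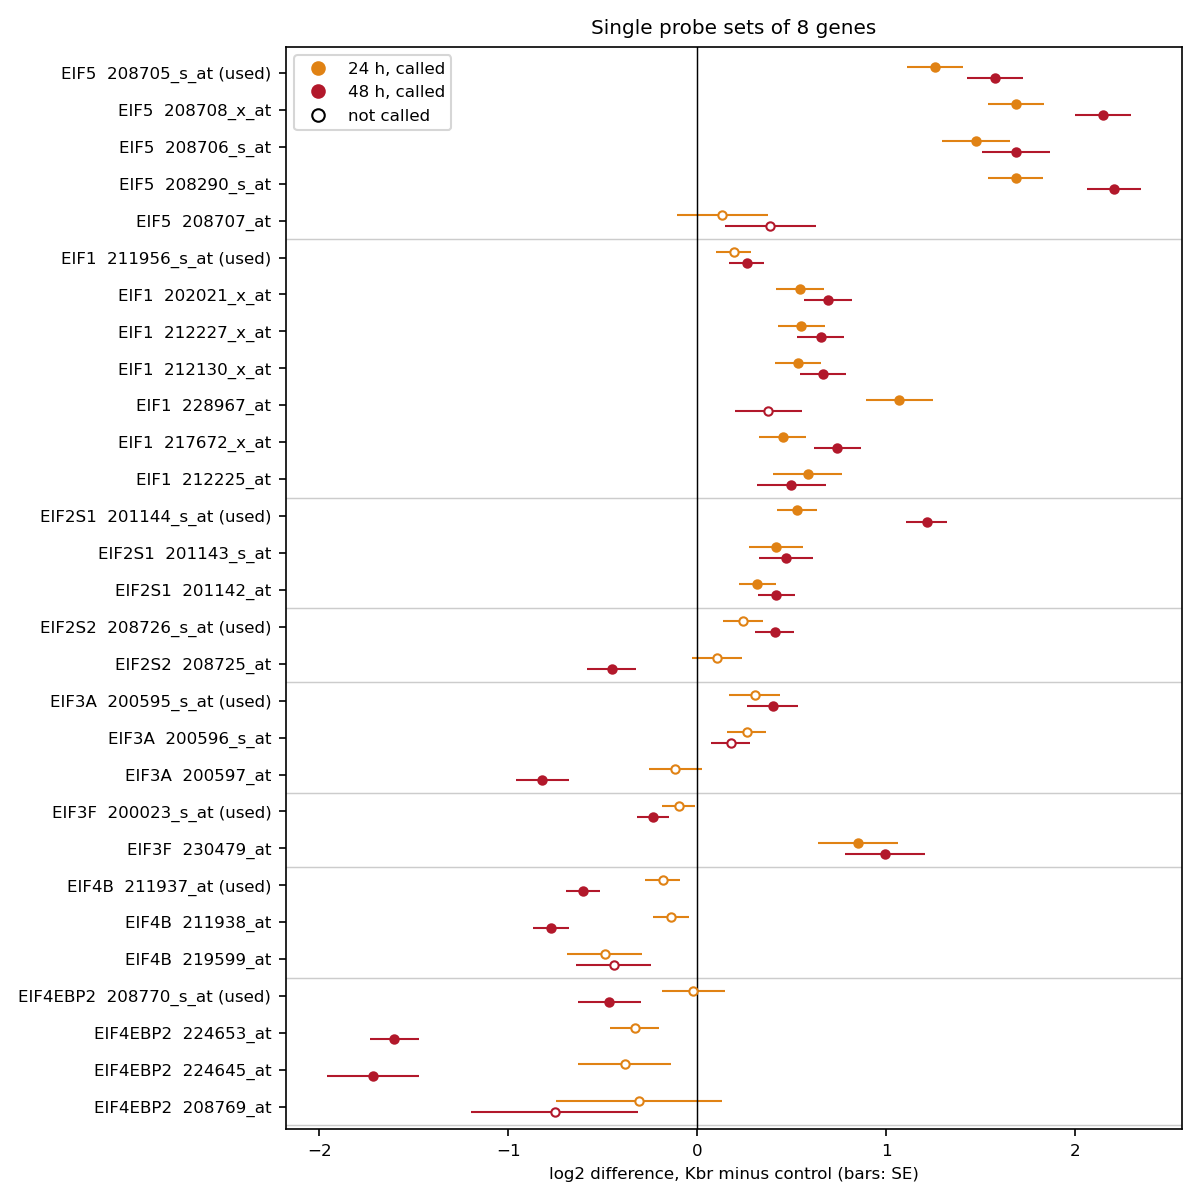
Log2 difference, Kbr minus control, with its standard error, for each probe set over the filter of 8 genes picked after their values were seen, at 24 h and 48 h; filled points passed an adjusted p of 0.05. The EIF5 sets lie together except 1, while the sets of EIF2S2, EIF3A and EIF3F fall on both sides of 0 at 48 h.

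Across the members, 27 had more than 1 probe set over the filter. All such sets of a member were called higher for 5 members at 24 h and 7 at 48 h (18.5% and 25.9%, against 6.20% and 17.7% of the 5192 tested genes with several sets). All were called lower for 0 at 24 h and 1 at 48 h (3.70% at 48 h, against 6.90% and 15.9% of those genes). Sets of 1 member were called in opposite directions for 0 members at 24 h and 3 at 48 h, which are EIF2S2, EIF3A and EIF3F (11.1% at 48 h, against 0.250% and 4.82% of those genes).

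The Kbr effect differed between the times for 2 members, EIF2S1 and EIF1AD (4.88% of the members, against 5.58% of all tested genes), in both a larger rise at 48 h than at 24 h (2.09% of all tested genes had such a higher effect). For EIF2S1 the change was 0.68 (SE 0.14, adjusted p = 0.0269) and for EIF1AD 0.54 (SE 0.12, adjusted p = 0.0298). With the block 7 members were called, against 20.2% of all tested genes and 8.83% in the higher direction: these and EIF3J, EIF4A3 and EIF5A with a larger rise (adjusted p = 0.0324, 0.013 and 0.0294), and EIF3K and EIF4B with a lower value (0.0457 and 0.0284). The EIF1AD call was lost on leaving out Kbr 24 h replicate 1 (adjusted p = 0.0716), 2 (0.0548) or 3 (0.0693), Kbr 48 h replicate 1 (0.0647) or 2 (0.0648), or control replicate 3 of 24 h (0.0784) or 2 of 48 h (0.0692). The EIF2S1 call was lost on leaving out Kbr 24 h replicate 1 (0.0716) or 2 (0.0577), Kbr 48 h replicate 1 (0.0596) or 2 (0.0626), or control replicate 2 (0.0577) or 3 (0.0726) of 24 h or 1 (0.0625) or 2 (0.0544) of 48 h. On the mean of all probe sets neither was called (0.175 for EIF2S1 and 0.0539 for EIF1AD), EIF2S1 was not called with unsuffixed probe sets preferred (0.695), and the other EIF2S1 sets show a change of 0.05 and 0.10.

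Between the times, 3 members differed in Kbr cultures and 3 in control cultures (7.32% of the members each, against 17.1% and 4.03% of all tested genes). Of all tested genes 7.12% were called higher and 10.0% lower in Kbr cultures, and 1.73% higher and 2.30% lower in control cultures. These comparisons share arrays with those above. In Kbr cultures at 48 h against 24 h, EIF2A was higher by 0.36, EIF2B5 differed by -0.32 and EIF4EBP2 by -0.70. In control cultures EIF2A was higher by 0.47 and EIF4B by 0.41, and EIF1AD differed by -0.35. With 1 array left out the count of members ran from 0 to 8 in Kbr cultures and from 0 to 4 in control cultures. With the block 10 members were called in Kbr and 13 in control cultures (24.4% and 31.7% of the members, against 33.8% and 20.8% of all tested genes).

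In the EIF2A call in Kbr cultures, each of the 3 Kbr 24 h arrays and Kbr 48 h replicates 1 and 2 ended it when left out, with adjusted p between 0.0853 and 0.144. So did control 24 h replicates 1 (0.0597) and 2 (0.0501) and control 48 h replicate 2 (0.0517). For EIF2B5 the same 5 Kbr arrays ended the call (0.0549 to 0.0908), and for EIF4EBP2 Kbr 24 h replicate 3 (0.0627) and Kbr 48 h replicates 1 (0.0643) and 2 (0.0749) did. In control cultures all 12 arrays but Kbr 48 h replicate 3 ended the EIF1AD call when left out (0.0571 to 0.17). The EIF2A call in control cultures ended without any Kbr 24 h array, Kbr 48 h replicate 1 or 2, any control 24 h array, or control 48 h replicate 1 or 2 (0.0508 to 0.177). The EIF4B call ended without Kbr 24 h or Kbr 48 h replicate 2, any control 24 h array, or control 48 h replicate 1 or 2 (0.0508 to 0.137).

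Genes of the same pathway that are not members were read from lists. The counts of every list stand beside 12.4% higher and 20.0% lower of all tested genes at 24 h, and 26.9% and 32.8% at 48 h. With the block these shares are 18.6% and 29.4% at 24 h, and 31.3% and 38.1% at 48 h. The list on eIF2 phosphorylation also holds EIF2D, MCTS1 and DENR, which are not part of that phosphorylation. Of its 10 tested genes 0 rose and 3 fell at 24 h, and 5 rose and 3 fell at 48 h. The falls at both times were those of EIF2D, MCTS1 and IMPACT. With the replicate block GCN1, the activator of GCN2, was also called lower at both times (adjusted p = 0.0423 and 0.0106). PPP1R15A, the stress-induced subunit that directs a phosphatase to eIF2, rose by 2.10 at 48 h (SE 0.40, adjusted p = 0.00102). DNAJC3 and EIF2AK3 were named after their values were seen. DNAJC3, a co-chaperone that inhibits eIF2 kinases, rose by 2.02 (adjusted p = 0.000812) and EIF2AK3, the kinase PERK of the endoplasmic reticulum, by 1.31 (adjusted p = 0.000342). EIF2D, an initiator tRNA delivery and recycling factor, differed by -1.34 at 24 h and -2.53 at 48 h, both called (adjusted p = 0.000189 and 7.49e-07). IMPACT, an inhibitor of GCN2, fell by 0.79 at 24 h and fell by 1.93 at 48 h on the log2 scale (adjusted p = 0.0264 and 5.01e-05).

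Of 8 termination and recycling factors 5 rose and 0 fell at 24 h, and 7 rose and 0 fell at 48 h. Of all tested genes 12.4% rose and 20.0% fell at 24 h, and 26.9% rose and 32.8% fell at 48 h. PELO, which rescues stalled ribosomes, rose by 1.05 and 1.34, GSPT1, a release factor, by 0.59 at 24 h, and MTRF1L, a mitochondrial release factor, by 1.16 at 48 h. Both hypusine enzymes moved, in opposite directions: DOHH rose by 0.73 and 1.01, and DHPS, which acts before it on eIF5A, fell, with differences of -0.81 and -1.03. Of 12 cap and poly-A binding regulators 1 rose and 1 fell at 24 h, and 2 rose and 5 fell at 48 h (3 and 5 with the block). LARP1, which binds mRNAs of ribosomal proteins, rose by 0.41 at 24 h, and CYFIP1, an eIF4E-binding partner of FMRP, fell by 0.56 on the log2 scale. The 2 genes named by rule at 48 h, PAIP2B, an inhibitor of poly-A binding protein, and GIGYF1, a partner of EIF4E2, were called lower. At that time PAIP2B averaged 3.86 ± 0.93 in Kbr cultures, against 5.32 ± 0.39 in control cultures, and GIGYF1 averaged 3.30 ± 0.66 in Kbr cultures, against 4.44 ± 0.76 in control cultures (SD, n = 3 each). Both averaged under the filter's level of 4 in every group but control at 48 h, so they were tested mainly through the group where they are high. Both are among the 5 falls, but neither their calls nor the differences between these means are read as results. EIF4E3, another of the 5, was also near that level, at 3.57 in Kbr and 4.37 in control cultures at 48 h. PDCD4, an inhibitor of eIF4A in the same list, did not pass the filter and was not tested, at 4.95 ± 1.11 in Kbr cultures, against 2.88 ± 0.05 in control cultures, at 48 h.

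Of 12 TOR pathway genes 1 rose and 1 fell at 24 h, and 3 rose and 2 fell at 48 h. For these and the lists that follow, 12.4% of all tested genes rose and 20.0% fell at 24 h, and 26.9% and 32.8% at 48 h. With the block 2 rose and 3 fell at 24 h, and 4 rose and 3 fell at 48 h. The calls added were AKT1S1, an inhibitor within the TOR complex, higher at both times (adjusted p = 0.02 and 0.000277), MLST8, a subunit of that complex, lower at both times (0.0226 and 0.00143), and TSC2 lower at 24 h (0.00705). RHEB, the GTPase that activates the TOR kinase, rose by 0.38 at 24 h. DDIT4, a stress-induced inhibitor of the pathway, fell, with differences of -1.29 at 24 h and -1.01 at 48 h, and TSC2, the inhibitor of RHEB, fell by 1.85 at 48 h. Of 8 elongation factors 0 rose and 1 fell at 24 h, and 1 rose and 2 fell at 48 h. With the block 3 rose and 3 fell at 48 h, with TUFM (adjusted p = 0.00235) and GFM1 (0.0481), both mitochondrial, added as higher and EEFSEC, the selenocysteine factor, as lower (0.0105). EEF2K, the kinase that inactivates eEF2, fell, with differences of -0.91 at 24 h and -1.18 at 48 h, and EEF2 itself fell by 0.45 at 48 h. Of 2 mitochondrial initiation factors MTIF3 fell at both times, with differences of -0.71 and -1.08. Of 11 cytosolic ribosomal proteins none was called at 24 h, and 2 fell at 48 h, RPL3 with a difference of -0.44 and RPS9 with -0.27. With the block RPL3 was also called lower at 24 h (adjusted p = 0.0189) and RPL27A higher at 48 h (0.0272).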

How the data were processed

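Total RNA of 12 HK-2 cultures (4 groups of 3 biological replicates) was measured, per the labels' protocols, on 1 Affymetrix array a culture. The authors deposited log2 values made with GCRMA (version not given), per the submitters' processing notes. Of 54675 probe sets, 41091 carried 1 gene symbol, 1801 several and 11721 none, and 62 were controls. Array medians lay between 2.89 and 2.96, and detection calls, the scanner signal and the genome build are not given in the sources used here. The number of arrays limits the precision.

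From these values, log2 differences were tested two-sided in R 4.3.3 by the moderated test of limma 3.58.1 (lmFit, then eBayes, 4 group means, 12 arrays, 8 residual and 2.87 prior degrees of freedom), with Benjamini-Hochberg adjustment over the 10574 genes over the filter. SE is the moderated standard error of a log2 difference. P-values set a difference against the spread between these cultures. The fit was tested on simulated data with log2 changes of 0.5, 1 and 2. It gave no wrong direction, but most changes of 0.5 were missed. A first pass mark, set on changes of 1, was not met, and the one kept is set on changes of 2. Apart from the simulation, a gene not called is not shown to be unchanged, above all where its difference is small. The 18 pairs of arrays with the same replicate number, taken from the labels, correlated between 0.232 and 0.633 after group means were removed, while the other 36 pairs ran from -0.378 to -0.004. Deviations cancel within a group, so positive correlations at the same number force negative ones in the other pairs, which add no evidence of their own. By the positive correlations the arrays are taken as paired by number. Calls, SE and adjusted p in the text leave this pairing out unless the block is named, and with the block more members were called. The block fit has 6 residual degrees of freedom. The alternatives were that block, no filter or a stricter one (log2 over 6), a gene's mean over its probe sets, unsuffixed probe sets preferred (those without the endings _x_at and _s_at), quantile normalization, centring each array on its median, an offset of 32 before log2, a trended and robust prior, only the groups compared, and each array left out in turn.

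Members and gene lists were chosen with earlier results of these data known, so no list was tested and no p was adjusted over a list. Values in each array are given, per role, for the 2 called members with the largest change at each time, for called members whose effect differs between the times, and for members whose probe sets were called in opposite directions; per list, the 2 called genes with the largest change at each time are named. Others named with values in each array were chosen after their values were seen. Probe sets were also tested one by one, adjusted over all probe sets over the filter. Python 3.11.15, with pandas 2.3.3 and matplotlib 3.10.9, made the tables and plots.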

Additional observations from a re-analysis of the deposited data

Results flagged for a closer look

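The Kbr effect differed between the times for 2 members by the test of the difference itself. EIF2S1, the alpha subunit of eIF2, rose by 1.21 at 48 h and 0.53 at 24 h, a change of 0.68 on the log2 scale (limma, adjusted p = 0.0269), and on the mean of its probe sets the change was not called (adjusted p = 0.175). Its Kbr arrays were higher at 48 h than at 24 h by 0.30 and its control arrays differed by -0.38 (SE 0.10 each, adjusted p = 0.0675 and 0.062, and 0.0194 and 0.012 with the replicate block). At that SE it cannot be told which of these parts is the larger. EIF1AD, the relative of eIF1A, rose by 1.19 at 48 h and 0.65 at 24 h, a change of 0.54 (adjusted p = 0.0298), and in control cultures it was itself lower at 48 h than at 24 h, by a difference of -0.35. With 1 array left out the number of members called for this change ran from 0 to 4. The cause of these differences was not tested.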

How the results depend on the processing

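The counts of members called for Kbr against control stayed within 1.5 times of their value under all 22 alternatives at each time: 13 at 24 h, with 9 to 13 when 1 array is left out, and 25 at 48 h, with 21 to 26. Over the called members and the alternatives, 255 of 286 values kept the call and direction at 24 h and 510 of 549 at 48 h. Among the members, the replicate block changed no call at these times other than those given with it above. For EIF3K at 48 h, preferring unsuffixed probe sets gave no value. All genes called at 24 h numbered 3429, and 2255 to 3880 with 1 array left out, the lowest without control 24 h replicate 1.

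The comparisons between times were less stable. The change of the Kbr effect was called for 2 members, against 7 with the replicate block, 5 without the filter, 1 on the mean of all probe sets, 4 with the offset, 5 with the trended and robust prior and 0 to 4 with 1 array left out (6 or 7 members at an unadjusted p under 0.05 where it was 0). Over all tested genes it was 590, against 2140 with the block, 386 without the filter and 136 to 1507 with 1 array left out. Kbr at 48 h against 24 h had 3 members, against 10 with the block, 5 without the filter, 5 with a log2 value over 6, 6 with unsuffixed probe sets preferred, 7 with the offset, 8 with the trended and robust prior, 0 with only the groups compared (8 at an unadjusted p under 0.05) and 0 to 8 with 1 array left out. Over all tested genes it was 1813, against 3571 with the block, 892 with only the groups compared and 720 to 2847 with 1 array left out. Control at 48 h against 24 h had 3 members, against 13 with the block, 5 with the offset, 0 with only the groups compared (12 at an unadjusted p under 0.05, limma) and 0 to 4 with 1 array left out. Over all tested genes it was 426, against 2202 with the block, 230 without the filter, 0 with only the groups compared (2140 at an unadjusted p under 0.05) and 28 to 655 with 1 array left out. In these 3 comparisons the sign of a member's value turned with no call on either side in 25, 30 and 16 cases, and with a call in 1, 4 and 0.

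The sign of a Kbr against control difference turned for some members with the choice of probe sets or with the normalization. On the mean of all probe sets these were, at 24 h, EIF2B5 (0.005), EIF3F (0.265), EIF3H (0.006) and EIF4G1 (0.001), and at 48 h EIF2S2 (-0.022), EIF2AK4 (0.585), EIF3A (-0.081), EIF3F (0.263) and EIF3H (-0.572). With unsuffixed probe sets preferred they were, at 24 h, EIF5B (-0.01), EIF3A (-0.116) and EIF3F (0.85), and at 48 h EIF2S2 (-0.453), EIF2AK4 (1.494), EIF3A (-0.819), EIF3F (0.992) and EIF4E2 (-0.808). With arrays centred on their median they were EIF2AK4 (-0.002) and EIF4EBP1 (-0.018) at 24 h, and after quantile normalization EIF3E at 24 h (-0.024) and at 48 h (-0.009) and EIF3H at 48 h (-0.064). Both EIF2AK4 values of 48 h draw on 237145_at, which exceeded the filter's level in Kbr arrays alone, and are not read as results.

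With 1 array left out the sign of uncalled members near 0 turned. At 24 h the differences ran from -0.107 to 0.017 for EIF2B2, -0.133 to 0.145 for EIF2AK4, -0.021 to 0.119 for EIF3E, -0.103 to 0.018 for EIF3H, -0.11 to 0.04 for EIF3I, -0.172 to 0.144 for EIF4G1, -0.115 to 0.151 for EIF4EBP1 and -0.069 to 0.015 for EIF4EBP2. At 48 h they ran from -0.076 to 0.012 for EIF2B1, -0.005 to 0.16 for EIF2B2, -0.069 to 0.182 for EIF2B4, -0.015 to 0.102 for EIF2AK1, -0.053 to 0.111 for EIF3E, -0.019 to 0.074 for EIF3H and -0.068 to 0.165 for EIF3I. The cause of these sign changes and of the moved counts was not tested. Probe sets near the filter give little signal over background, and 3 arrays a group limit the smallest change that can be called.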
